A study of Mus musculus with 19 samples.

Results

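The transcripts described here are 8 genes of epidermal growth factor (EGF) receptor signalling in mouse liver, taken by name: the receptors Egfr and Erbb3, the inhibitors Errfi1, Dusp6, Spry2, Spry4 and Spred1, and the ephrin ligand Efna1. All 8 were among the 14576 genes of the deposited counts and passed the filter on low counts with 12493 genes in all. Liver RNA was sequenced in 19 adult mice of 4 groups. The tg mice carried the driver AgRP-IRES-Cre tg/wt, and their controls were wt/wt at that locus. Every mouse, control or not, carried ROSA26 ChR2 fl/wt, a channelrhodopsin made only where Cre acts, here in neurons that express agouti-related peptide (AgRP). Light of 473 nm, in pulses of 10 ms at 20 Hz with 3 s on and 1 s off, was given above the arcuate nucleus for 2 h (4 tg and 5 wt mice) or 4 h (5 tg and 5 wt mice). Illumination began at zeitgeber time 5.5 for the shorter course and 3.5 for the longer one. All livers were taken at zeitgeber time 7.5, and no food was given under light. No tg mice went without light, so excitation and the presence of the Cre driver cannot be told apart, and AgRP was not analysed here as a check of the labels.

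EGF receptor (ErbB1) is a receptor tyrosine kinase on the surface of hepatocytes, where it takes part in regeneration and in lipid and glucose handling. Ligand binding pairs it with itself or with another ErbB receptor. The pair then recruits adaptors that switch on RAS, the kinases MEK and ERK, and PI3 kinase. Several products of the pathway act back on it at different heights, from the receptor's kinase domain to ERK, and their transcripts are often read as a sign of recent pathway activity.

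In short, Errfi1 was higher and Erbb3 lower in tg than in wt livers at both durations. Efna1 was lower at 2 h. The levels of Egfr, Dusp6, Spry2, Spry4 and Spred1 did not pass the test at either duration. At 2 h, 3 of the 8 genes had a Benjamini-Hochberg adjusted p below 0.05 in the quasi-likelihood test of edgeR, against 2.16% of all genes tested. These were 1 higher and 2 lower in tg, against 1.14% higher and 1.02% lower of all genes. At 4 h, 2 of the 8 passed it, against 11.4% of all genes, with 1 higher and 1 lower, against 5.75% higher and 5.64% lower. For the average over durations, 3 of the 8 passed, against 14.2% of all genes. The 8 genes were chosen with earlier results of these data known. Their counts beside the shares of all genes are descriptions throughout. Changes are log2 fold changes of tg over wt throughout, with standard errors (SE), and levels are in CPM, counts scaled to a common library total.

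Library facts that bear on the values are few. Total counts over the 14319 genes with values at both durations ran from 21474255 to 32721605. Mitochondrially encoded genes took 7.75% of counts in tg 2 h replicate 1 and 7.83% in wt 4 h replicate 1, and between 10.0% and 12.9% in the other libraries. The third library treated with caution was tg 4 h replicate 3, whose Errfi1 level was low. It was chosen on a value that is itself tested, and leaving out the 3 together was chosen after seeing the data. Results without it or without the 3 are therefore descriptions, also where a gene passed the test only there. Marker genes placed the tissue as liver: the summed level of 7 hepatocyte markers was 64130 to 99321 CPM in tg 2 h, 72723 to 93429 CPM in wt 2 h, 91149 to 104737 CPM in tg 4 h and 70414 to 92624 CPM in wt 4 h. The 8 endothelial markers summed to 157 to 239 CPM over all libraries. Of these 8, 0 passed edgeR's test at 2 h or 4 h, where 2.16% and 11.4% of all genes did. An unadjusted p below 0.05 was found for 0, against 11.7% of all genes at 2 h and 25.5% at 4 h. Their changes at 4 h ran from -0.13 to 0.79. In whole tissue, a smaller number of cells of one type and less RNA per cell cannot be told apart.

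The promoter windows of the called genes, and that of Egfr, are shown to place these genes in the genome and to let their letters be compared. Each window holds the 250 bases before a RefSeq start in build GRCm38.p6, on the gene's strand and 5′ to 3′. RefSeq windows were matched for 6 of the 8 genes. Erbb3 and Spry4 are named only. Capitals mark matches to 1 of 5 short motifs searched on both strands.
Errfi1 (chr4:150854820-150855069, + strand): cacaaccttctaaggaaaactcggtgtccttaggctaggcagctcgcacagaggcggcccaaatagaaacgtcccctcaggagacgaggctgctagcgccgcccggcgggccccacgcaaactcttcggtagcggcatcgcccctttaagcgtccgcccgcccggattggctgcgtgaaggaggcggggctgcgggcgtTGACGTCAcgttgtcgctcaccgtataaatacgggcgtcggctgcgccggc
Efna1, start further downstream (chr3:89279646-89279895, - strand): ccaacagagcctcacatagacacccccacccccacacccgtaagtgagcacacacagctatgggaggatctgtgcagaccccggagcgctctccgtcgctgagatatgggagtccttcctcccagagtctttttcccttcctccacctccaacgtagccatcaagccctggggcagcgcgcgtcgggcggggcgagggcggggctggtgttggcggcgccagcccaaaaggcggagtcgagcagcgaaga
Efna1, start further upstream (chr3:89280952-89281201, - strand): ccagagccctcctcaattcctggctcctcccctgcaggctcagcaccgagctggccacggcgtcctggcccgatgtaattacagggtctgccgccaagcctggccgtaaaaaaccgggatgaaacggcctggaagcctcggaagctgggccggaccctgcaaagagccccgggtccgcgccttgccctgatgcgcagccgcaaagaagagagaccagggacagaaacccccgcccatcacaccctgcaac
Egfr (chr11:16751953-16752202, + strand): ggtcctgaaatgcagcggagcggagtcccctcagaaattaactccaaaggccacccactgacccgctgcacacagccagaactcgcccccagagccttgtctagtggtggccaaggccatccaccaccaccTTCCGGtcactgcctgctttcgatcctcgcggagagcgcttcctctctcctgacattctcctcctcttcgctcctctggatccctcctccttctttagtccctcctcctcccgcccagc
The motifs were the full CREB site TGACGTCA, its parts TGACG and CGTCA, the glucocorticoid receptor part-site AGAACA, the FoxO site GTAAACA and the ETS core CCGGAA, each with its reverse complement. The Errfi1 window holds TGACGTCA, beginning 51 bases before the start. That palindrome is found in 1.55% of 32851 mouse promoter windows of the same length, and the shorter TGACG or CGTCA, which lie within it, in 17.8%. The Egfr window holds TTCCGG, the reverse of the ETS core, 119 bases before the start, as do 12.0% of all windows on 1 strand or the other. Neither Efna1 window, nor the window of the other Errfi1 start, holds any of these letters. AGAACA or its reverse is found in 16.1% of all windows and GTAAACA or its reverse in 3.17%, and neither is found in the windows of the 6 genes.

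Errfi1 (ENSMUSG00000028967, chr4:150853919-150868892, + strand) encodes MIG6, which binds the kinase domain of the EGF receptor, blocks its activity and promotes its removal from the membrane. Errfi1 was at 1324, 1288, 1397 and 1357 CPM in the tg 2 h livers, against 279, 945, 739.7, 472 and 622 CPM in the wt 2 h livers. Every tg liver was above every wt liver, and the tg livers lay close together while the wt livers differed widely. The means were 1342 ± 46.6 CPM in tg (SD, n = 4) and 612 ± 254 CPM in wt (SD, n = 5), and the coefficient of variation was 3.47% in tg and 41.5% in wt. Errfi1 rose by 1.13 ± 0.23 (SE) at 2 h, a 2.19-fold difference, with an adjusted p of 0.00990 in edgeR's quasi-likelihood test. In a fit to the libraries of the 2 h groups alone the change was 1.13 with an adjusted p of 0.0547, above the threshold.

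After 4 h of light, Errfi1 was at 1569.7, 1523, 1091, 1460.0 and 1534 CPM in tg livers, against 1024, 968, 836, 648 and 993 CPM in wt livers. The groups did not overlap here either, although tg replicate 3 came close to the highest wt liver. Means were 1436 ± 197 CPM in tg and 894 ± 155 CPM in wt (SD, n = 5 each). The rise was 0.68 ± 0.22 (SE), or 1.61-fold, and its adjusted p of 0.0485 lay just under the threshold. Of the 10 fits that each left out 1 library, only those without tg replicate 3 or wt replicate 1 kept the call, with adjusted p-values between 0.0323 and 0.123 and changes between 0.59 and 0.77. Without all 3 libraries treated with caution the change was 0.83 with an adjusted p of 0.0325 in edgeR's test. That set includes tg replicate 3, chosen for its low Errfi1 level, so this value is a description and cannot support the call. Averaged over both durations Errfi1 rose by 0.91 ± 0.16 (adjusted p = 0.000655, edgeR's quasi-likelihood test), a call that held in all 19 fits without 1 library.

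The mean of Errfi1 in wt livers was higher after 4 h than after 2 h, by 0.55 ± 0.22 on the log2 scale, and this difference did not pass the test after adjustment (adjusted p = 0.821, edgeR). In tg livers the same difference was 0.10 ± 0.23. The change in the tg effect between durations was -0.45 ± 0.32 (95% interval -1.11 to 0.21), so a smaller effect at 4 h was not established.

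Erbb3 (ENSMUSG00000018166, chr10:128567523-128589652, - strand) encodes the neuregulin receptor ErbB3, which has little kinase activity of its own and signals to PI3 kinase as a partner of other ErbB receptors. Erbb3 was at 83.8, 84.7, 89.5 and 69.7 CPM in tg 2 h livers, against 145, 135, 131, 128 and 164 CPM in wt 2 h livers. The groups were well apart, the lowest wt liver lying above the highest tg liver by more than the whole spread of the tg group. Mean levels were 81.9 ± 8.52 CPM in tg (SD, n = 4) and 141 ± 14.8 CPM in wt (SD, n = 5). Erbb3 fell by 0.78 ± 0.16 on the log2 scale at 2 h (adjusted p = 0.0121, edgeR's quasi-likelihood test). Without tg 2 h replicate 5, the tg liver with the lowest level, the change was -0.71 and the adjusted p 0.0636.

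At 4 h the level of Erbb3 was 107, 74.0, 115, 88.3 and 70.6 CPM in tg livers, against 206, 141, 128, 188 and 121 CPM in wt livers. The groups again did not overlap, but wt replicate 5 and tg replicate 3 were close together. Their means were 90.9 ± 19.5 CPM in tg and 157 ± 38.0 CPM in wt (SD, n = 5 each). Erbb3 fell by 0.79 ± 0.15 on the log2 scale (adjusted p = 0.00235), and every fit without 1 library kept the call, at -0.89 to -0.67. The effects at 4 h and 2 h differed by -0.01 ± 0.22 (95% interval -0.47 to 0.45). Averaged over durations, the change was -0.78 ± 0.11 with an adjusted p of 8.85e-05 in edgeR's quasi-likelihood test.

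Efna1 (ENSMUSG00000027954, chr3:89271733-89281142, - strand) encodes ephrin-A1, a membrane-anchored ligand of EphA receptors that is not itself a part of the EGF receptor cascade and was first described as a gene induced by tumour necrosis factor in human endothelial cells. Its level was 14.2, 7.43, 7.07 and 5.04 CPM in tg 2 h livers, against 29.4, 18.7, 45.5, 37.8 and 21.0 CPM in wt 2 h livers. All tg livers were below all wt livers, with tg replicate 1, a library of low mitochondrial share, the highest of its group. Means were 8.44 ± 3.99 CPM in tg (SD, n = 4) and 30.5 ± 11.3 CPM in wt (SD, n = 5). Efna1 fell by 1.85 ± 0.35 on the log2 scale, 3.61-fold lower in tg, with an adjusted p of 0.00798 in edgeR's quasi-likelihood test. Without the 3 libraries treated with caution the change was -2.22 (adjusted p = 0.00121).

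After 4 h, Efna1 was at 10.2, 9.38, 25.9, 18.2 and 13.0 CPM in tg livers, against 30.7, 27.2, 32.3, 35.8 and 21.6 CPM in wt livers. Only tg replicate 3 reached into the wt range. The means were 15.3 ± 6.86 CPM in tg and 29.5 ± 5.41 CPM in wt (SD, n = 5 each). The change of -0.94 ± 0.31 did not pass the test (adjusted p = 0.0623, edgeR's quasi-likelihood test). It was -1.22 without tg 4 h replicate 3 (adjusted p = 0.0148, edgeR) and -1.19 without all 3 libraries (adjusted p = 0.00925, edgeR). Replicate 3 had the highest Efna1 level of the tg group, and the set of 3 was chosen after seeing the data. Both values are therefore descriptions. For the 4 h change on all libraries DESeq2 gave an adjusted p of 0.0153 and limma-voom one of 0.0272. The 4 h effect minus the 2 h effect was 0.91 ± 0.46 (95% interval -0.06 to 1.88) and did not pass the test (adjusted p = 0.879, edgeR). The average over durations was -1.40 ± 0.23 (adjusted p = 0.000655).

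Egfr (ENSMUSG00000020122, chr11:16752203-16918158, + strand), the gene of the receptor itself, did not pass the test at either duration. Its level was 465.7, 369, 758 and 822 CPM in tg 2 h livers, against 877, 617, 435, 816 and 409 CPM in wt 2 h livers. Both groups were spread widely and overlapped throughout. Means were 604 ± 220.4 CPM in tg (SD, n = 4) and 631 ± 214 CPM in wt (SD, n = 5), a change of -0.06 ± 0.24 (95% interval -0.57 to 0.45).

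At 4 h, Egfr was at 383, 355, 372, 409 and 362 CPM in tg livers, against 514, 636, 500.2, 633 and 353 CPM in wt livers. The tg livers lay within a narrow band at the low end of the wt range, and only wt replicate 5 fell below them. The coefficient of variation was 5.64% in tg and 22.1% in wt. The change was -0.49 ± 0.23, with an unadjusted p of 0.0488 and an adjusted p of 0.194 in edgeR's quasi-likelihood test. A fit to the 4 h groups alone gave -0.48 with an adjusted p of 0.0478. The authors' deposited table for 4 h, also a comparison within the duration, gives -0.48 with an adjusted p of 0.0146. In tg livers Egfr was lower at 4 h than at 2 h, with a log2 change of -0.68 ± 0.24, which did not pass the test after adjustment (adjusted p = 0.228, edgeR). An antisense gene, Egfros, overlaps Egfr, as 1700045H11Rik overlaps Errfi1. Neither has counts in the deposited table, and whether counting used the strand is not stated in the sources used here.

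**Figure D1:**
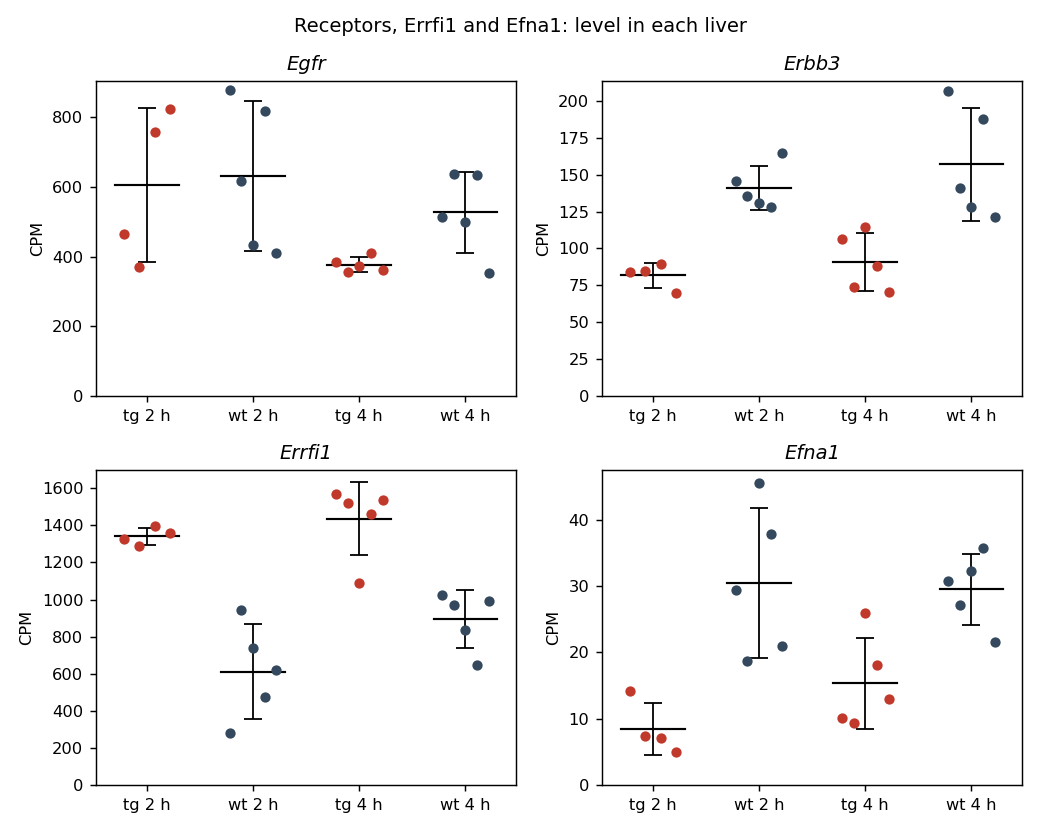
CPM of the receptors Egfr and Erbb3, the receptor inhibitor Errfi1 and the ephrin Efna1 in each liver (points), with the group mean (line) and SD (bars), for mice lit for 2 h (4 tg, 5 wt) or 4 h (5 tg, 5 wt). Errfi1 sits at 1288 CPM or more in all tg 2 h livers and at 945 CPM or less in all wt 2 h livers, Erbb3 is lower in every tg than in every wt liver of the same duration, and Egfr overlaps between genotypes.

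Levels were also set against that of Egfr. A ratio was taken within each library between Errfi1 and Egfr in CPM per kilobase of the longest annotated transcript, after their values had been seen and as a description only. It was 8.24 ± 2.90 in tg 2 h livers (range 5.54 to 11.7, n = 4), against 3.79 ± 2.12 in wt 2 h livers (range 1.07 to 5.71, n = 5), with a slight overlap. At 4 h it was 12.8 ± 1.93 in tg (range 9.84 to 14.4) and 6.06 ± 2.22 in wt (range 3.44 to 9.44), without overlap (SD, n = 5 each). The same ratio of Erbb3 to Egfr overlapped between genotypes at both durations. At 2 h it ranged from 0.144 to 0.389 in tg and from 0.266 to 0.681 in wt. Its 4 h range was 0.331 to 0.524 in tg and 0.376 to 0.681 in wt.

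Dusp6 (ENSMUSG00000019960, chr10:99263231-99267489, + strand) encodes a cytoplasmic phosphatase that removes the activating phosphates of ERK, and its transcript is itself induced by ERK. Its level was 10.1, 8.20, 15.2 and 12.2 CPM in tg 2 h livers, against 29.8, 10.1, 10.9, 15.5 and 15.1 CPM in wt 2 h livers. The groups overlapped, and wt replicate 1 stood far above its group. The change was -0.51 ± 0.38 (95% interval -1.32 to 0.30, adjusted p = 0.720 in edgeR's quasi-likelihood test), and -0.17 without wt 2 h replicate 1. At 4 h it was at 14.5, 16.9, 15.7, 13.9 and 14.9 CPM in tg livers, against 37.1, 10.5, 16.6, 18.2 and 7.503 CPM in wt livers. The tg livers kept to a narrow band inside a wide wt range, with coefficients of variation of 7.52% in tg and 64.2% in wt. The change of -0.25 ± 0.36 turned to 0.20 without wt 4 h replicate 1, so no direction can be given for Dusp6 at 4 h.

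The Sprouty and Spred proteins act between the receptor and ERK. Spry2 and Spry4 (Sprouty 2 and 4) are recruited to the membrane on receptor activation and restrain RAS and RAF, and Spred1 brings the RAS inhibitor neurofibromin to the membrane. None of these 3 genes passed the test.

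Spred1 (ENSMUSG00000027351, chr2:117121374-117182279, + strand) was at 10.0, 6.41, 11.2 and 9.46 CPM in tg 2 h livers, against 10.4, 8.12, 9.38, 8.01 and 11.7 CPM in wt 2 h livers. At 4 h it was at 14.3, 14.5, 6.66, 12.7 and 10.8 CPM in tg livers, against 16.9, 14.6, 13.9, 12.4 and 9.44 CPM in wt livers. The genotypes overlapped at both durations, and tg 4 h replicate 3 was the lowest of its group. The changes were -0.04 ± 0.21 at 2 h (95% interval -0.48 to 0.40) and -0.19 ± 0.19 at 4 h (95% interval -0.60 to 0.21). Spred1 was higher at 4 h than at 2 h in wt livers by 0.50 ± 0.19, which failed the adjustment (adjusted p = 0.821, edgeR).

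Spry4 (ENSMUSG00000024427, chr18:38586247-38601415, - strand) was at 3.62, 3.06, 4.27 and 3.27 CPM in tg 2 h livers, against 5.98, 2.06, 3.97, 6.59 and 6.401 CPM in wt 2 h livers. At 4 h its level was 8.69, 5.11, 3.52, 2.55 and 5.93 CPM in tg livers, against 11.6, 4.67, 7.53, 7.88 and 4.91 CPM in wt livers. The genotypes overlapped at both durations. The changes were -0.49 ± 0.36 at 2 h (95% interval -1.24 to 0.26) and -0.51 ± 0.33 at 4 h (95% interval -1.20 to 0.17), with adjusted p-values of 0.707 and 0.357 in edgeR's quasi-likelihood test. The 4 h change was -0.28 without wt 4 h replicate 1, -0.78 without tg 4 h replicate 1 and -0.15 without the 3 libraries treated with caution.

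Spry2 (ENSMUSG00000022114, chr14:105891947-105896819, - strand) was the least abundant of the 8, with 7 to 30 counts in a library, so that counting error alone is a large part of its spread. It was at 0.822, 0.467, 0.575 and 0.398 CPM in tg 2 h livers, against 1.02, 0.662, 0.734, 0.862 and 0.791 CPM in wt 2 h livers. At 4 h it was at 0.442, 0.491, 0.378, 0.308 and 0.387 CPM in tg livers, against 0.828, 0.372, 0.662, 0.553 and 0.491 CPM in wt livers. Only tg replicate 1 reached into the wt range at 2 h, and at 4 h only wt replicate 2 lay within the tg range, with wt replicate 5 level with its top. The changes were -0.52 ± 0.27 at 2 h (95% interval -1.08 to 0.05) and -0.55 ± 0.27 at 4 h (95% interval -1.11 to 0.01). The 4 h change was -0.35 without the 3 libraries treated with caution. The average over durations of -0.53 ± 0.19 had an unadjusted p of 0.0113 and an adjusted p of 0.0692 in edgeR's quasi-likelihood test.

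**Figure D2:**
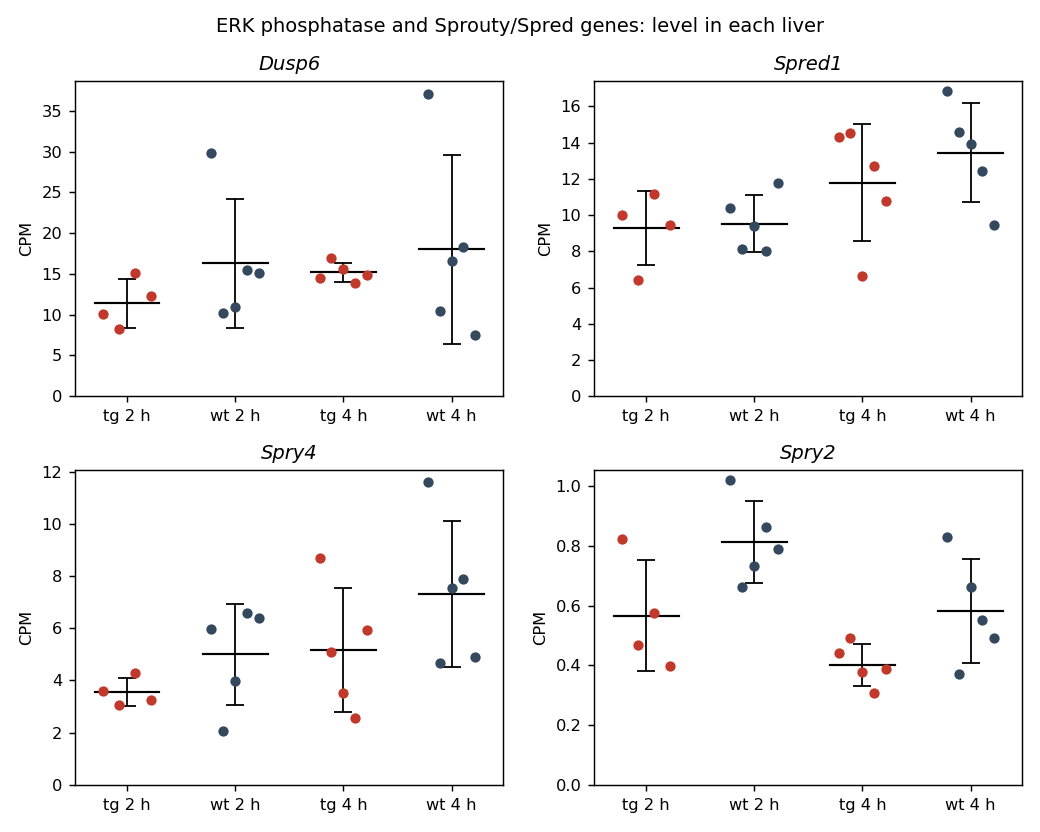
CPM of the ERK phosphatase gene Dusp6 and of Spred1, Spry4 and Spry2 in each liver (points), with the group mean (line) and SD (bars), for mice lit for 2 h (4 tg, 5 wt) or 4 h (5 tg, 5 wt). The genotypes overlap in all 4 genes at both durations, and Dusp6 reaches 29.8 CPM in wt 2 h replicate 1 and 37.1 CPM in wt 4 h replicate 1.

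Across the 8 genes, 7 had a change below 0 at 2 h and 7 at 4 h, Errfi1 being the exception both times, against 48.1% of all genes tested at 2 h and 51.8% at 4 h. The median change of the 8 was -0.50 at 2 h and -0.50 at 4 h, and that of all genes 0.01 at 2 h and -0.01 at 4 h. Most of those 7 changes did not pass the test. The genes were also chosen with earlier results of these data known, so the count of 7 is a description only. When the 3 libraries treated with caution were left out, 6 were below 0 at 2 h and 5 at 4 h, Egfr at 2 h and Dusp6 and Spred1 at 4 h turning above 0, and the medians were -0.47 at 2 h and -0.25 at 4 h. The order of levels per kilobase was Errfi1, Egfr, Erbb3, Efna1, Dusp6, Spred1, Spry4 and Spry2 from high to low by the means of each of the 4 groups. Errfi1 averaged 441 CPM per kilobase in tg 2 h livers and 201 CPM per kilobase in wt 2 h livers, and Spry2 0.271 CPM per kilobase in tg 2 h livers and 0.390 CPM per kilobase in wt 2 h livers. Errfi1 did not overlap with Egfr, nor Egfr with Erbb3, in any group. Erbb3 and Efna1 overlapped in all groups but tg 2 h, Efna1 and Dusp6 in all but wt 2 h, Spred1 and Spry4 in all but tg 2 h, Dusp6 and Spred1 in wt 4 h, and Spry4 and Spry2 in wt 2 h.

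**Figure D3:**
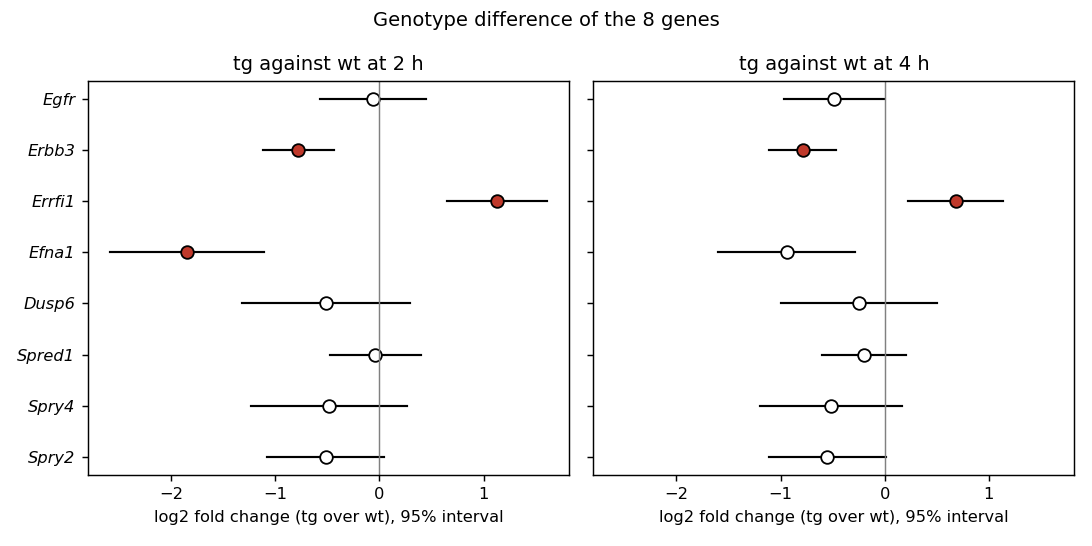
Log2 fold change of tg over wt (points) with its 95% interval (bars) for the 8 genes at 2 h and 4 h, from edgeR's quasi-likelihood fit to 19 libraries. Errfi1 lies above 0 at 1.13 and 0.68, Erbb3 below it at -0.78 and -0.79, and Efna1 at -1.85 and -0.94, while the intervals of Dusp6, Spry2, Spry4 and Spred1 reach across 0 at both durations.

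Time under light was compared within each genotype too, although the courses also differed in the hour at which light and fasting began. None of the 8 genes passed the test for 4 h against 2 h in tg livers, where 0.913% of all genes did, or in wt livers, where 0% did. At an unadjusted p below 0.05 there were 2 in tg (Egfr and Efna1) and 2 in wt (Errfi1 and Spred1), against 12.1% of all genes in tg and 5.98% in wt. DESeq2 and limma-voom also called 0 of the 8. None passed for the difference of the tg effects between durations, where edgeR called 0% of all genes. For that difference 0 of the 8 had an unadjusted p below 0.05, against 5.79% of all genes. Efna1 in tg livers was higher at 4 h than at 2 h by 0.86 ± 0.35 (adjusted p = 0.308), and in wt livers the same difference was -0.05 ± 0.31.

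The authors' deposited tables, from separate comparisons at each duration, call 3 of the 8 at 2 h (Erbb3, Errfi1 and Efna1), where 3.98% of their genes are called, and 4 of the 8 at 4 h (also Egfr), where 12.2% are. The authors' deposited table for 4 h gives Efna1 a change of -0.94 with an adjusted p of 0.00406, and Errfi1 one of 0.69 with an adjusted p of 8.85e-05. Groups that do not overlap in CPM were found for 3 of the 8 at 2 h, against 6% of all genes, and for 2 of the 8 at 4 h, against 8.19% of all genes.

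The rest of the pathway was described by lists of its parts. Of 11 EGF family and neuregulin ligands, 5 could be tested and 0 passed at either duration. The shares of all genes that passed were 2.16% at 2 h and 11.4% at 4 h. An unadjusted p below 0.05 was found for 0 of the 5 ligands at 2 h, against 11.7% of all genes, and for 2 at 4 h, against 25.5%. The 2 were Btc (-0.44) and Nrg4 (0.71). Both are named here after their values were seen. Nrg4, the gene of neuregulin 4, passed at 4 h without the 3 libraries treated with caution (0.81, adjusted p = 0.0335, edgeR). Tgfa, which encodes transforming growth factor alpha, was the most abundant of them, at 19.9 ± 2.96 CPM in tg 2 h livers (SD, n = 4) and 17.5 ± 2.64 CPM in wt 2 h livers (SD, n = 5), a change of 0.19 ± 0.14. Of the 4 ErbB receptors, Erbb3 alone passed at each duration, where 2.16% of all genes passed at 2 h and 11.4% at 4 h. An unadjusted p below 0.05 in edgeR's test was found for 1 at 2 h (all genes 11.7%) and 2 at 4 h (25.5%). Erbb4, a neuregulin receptor with an active kinase, had a change of 0.40 ± 0.22 at 4 h (adjusted p = 0.260 in edgeR's test), which passed without the 3 libraries treated with caution (0.63, adjusted p = 0.0124).

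Among 13 adaptors, exchange factors and ubiquitin ligases, 0 rose and 1 fell at 2 h, where 2.16% of all genes were called, and 1 rose and 2 fell at 4 h, where 11.4% were. Unadjusted p-values in edgeR's test were below 0.05 for 4 at 2 h (all genes 11.7%) and 6 at 4 h (25.5%). The lowest change of the list at 2 h, -1.10, did not pass the test. Without the 3 libraries treated with caution 3 rose and 1 fell at 4 h, with 16.7% of all genes called, Cblb and Sos2 being gained and Plcg1 lost. The gene that passed at 2 h was Irs1, an adaptor of the insulin receptor, which fell by 0.82 ± 0.20 (adjusted p = 0.0300, edgeR). It was at 9.20 ± 1.302 CPM in tg (SD, n = 4) and 16.2 ± 3.11 CPM in wt (SD, n = 5), and is named here after its values were seen. At 4 h Gab2, a docking protein for PI3 kinase and SHP2, rose by 0.74 ± 0.19 (adjusted p = 0.0144), with 3.75 ± 1.15 CPM in tg and 2.23 ± 0.44 CPM in wt (SD, n = 5 each). Cblc, a ubiquitin ligase of activated receptors, fell by 0.52 ± 0.13 (adjusted p = 0.0113). Cblb, another ubiquitin ligase, and Sos2, an exchange factor of RAS, are named here after their values were seen. Their changes at 4 h without the 3 libraries were 0.74 (adjusted p = 0.00190) and 0.41 (adjusted p = 0.0235), against 0.46 (adjusted p = 0.0888) and 0.27 (adjusted p = 0.146) in edgeR's fit to all libraries. Plcg1, a phospholipase that binds activated receptors, fell by 0.37 ± 0.10 (adjusted p = 0.0180), but not past the threshold without the 3 libraries (-0.30, adjusted p = 0.0727).

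The 15 genes of the RAS and MAP kinase cascade included 0 that passed at 2 h or at 4 h. The shares of all genes that passed were 2.16% at 2 h and 11.4% at 4 h. Median changes of the 15 were 0.04 at 2 h and -0.04 at 4 h, and 4 h changes ran from -0.69 to 0.29. At an unadjusted p below 0.05 in edgeR's test there were 1 at 2 h and 4 at 4 h, against 11.7% of all genes at 2 h and 25.5% at 4 h. The RAF kinase gene Braf was the 1 that passed at 4 h without the 3 libraries treated with caution (0.41, adjusted p = 0.0179), named here after its values were seen. Map2k2, the gene of MEK2 and the most abundant of them, was at 110.5 ± 9.87 CPM in tg 4 h livers and 105 ± 6.24 CPM in wt 4 h livers (SD, n = 5 each). Of 16 ERK-responsive transcripts 11 were tested and 0 passed at 2 h or 4 h, where 2.16% and 11.4% of all genes did. Their unadjusted p in edgeR's test was below 0.05 for 0 at 2 h (all genes 11.7%) and 1 at 4 h (25.5%). Changes ran from -1.51 to 0.77 at 2 h and from -0.72 to 0.76 at 4 h. Their median change was -0.48 at 2 h and -0.23 at 4 h. Phlda1, the most abundant of them, varied widely, at 18.2 ± 4.02 CPM in tg 2 h livers (SD, n = 4) and 52.1 ± 38.7 CPM in wt 2 h livers (SD, n = 5). Its change of -1.51 ± 0.77 did not pass the test (adjusted p = 0.491 in edgeR's quasi-likelihood test).

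Of 23 genes listed as feedback inhibitors of receptor, RAS and ERK, among them Errfi1, Dusp6, Spry2, Spry4 and Spred1, 21 were tested. At 2 h 1 rose (Errfi1) and 2 fell, where 2.16% of all genes were called. At 4 h 2 rose (Errfi1 and Tnk2) and 3 fell, where 11.4% of all genes were called. Unadjusted p-values in edgeR's test were below 0.05 for 4 at 2 h (all genes 11.7%) and 6 at 4 h (25.5%). The median change of the 21 was -0.14 at 2 h and -0.08 at 4 h, against 0.01 and -0.01 for all genes. Lrig3, of a family of membrane proteins that includes inhibitors of ErbB receptors, fell at both durations, by 0.59 ± 0.14 at 2 h (adjusted p = 0.0256) and 0.52 ± 0.13 at 4 h (adjusted p = 0.0126, edgeR). It was at 5.58 ± 0.79 CPM in tg 4 h livers and 8.02 ± 0.91 CPM in wt 4 h livers (SD, n = 5 each). Lrig1, which promotes degradation of ErbB receptors, fell by 0.49 ± 0.12 at 4 h (adjusted p = 0.00908), when it was at 18.1 ± 1.94 CPM in tg and 25.5 ± 3.29 CPM in wt (SD, n = 5 each).

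The other called genes of the feedback inhibitor list were Dusp7 and Tnk2. Dusp7, an ERK phosphatase named here after its values were seen, fell by 0.58 ± 0.13 at 2 h (adjusted p = 0.0200) and by 0.43 ± 0.12 at 4 h (adjusted p = 0.0280, edgeR). Without the 3 libraries treated with caution its 4 h change was -0.35, with an adjusted p of 0.0926. Tnk2, a non-receptor kinase that binds EGF receptor and takes part in its turnover, rose by 0.78 ± 0.15 at 4 h (adjusted p = 0.00219), with 29.8 ± 8.18 CPM in tg and 17.4 ± 0.97 CPM in wt (SD, n = 5 each). Without those 3 libraries the list had 1 rise and 0 falls at 2 h, with 2.47% of all genes called. At 4 h it then had 4 rises and 2 falls, with 16.7% of all genes called.

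Of 5 sheddases and regulators of ligand release, 0 passed at 2 h, where 2.16% of all genes did. There 1 had an unadjusted p below 0.05, against 11.7% of all genes. At 4 h 1 rose, where 11.4% of all genes were called, or 2 without the 3 libraries treated with caution, where 16.7% were. The gene called on all libraries was Rhbdf2, the gene of iRhom2, which matures the sheddase ADAM17. It rose by 0.67 ± 0.14 (adjusted p = 0.00409, edgeR) and was at 12.5 ± 3.07 CPM in tg and 7.87 ± 1.29 CPM in wt (SD, n = 5 each). Of 13 ephrin-A ligands and EphA receptors, 7 were tested. Efna1 fell at 2 h, where 2.16% of all genes were called, and Epha1 fell at 4 h, where 11.4% were. Of the 7, 1 had an unadjusted p below 0.05 in edgeR's test at 2 h (all genes 11.7%) and 5 at 4 h (25.5%). Without the 3 libraries treated with caution 2 rose and 2 fell at 4 h, with 16.7% of all genes called. The rises were those of Epha2 (1.45, adjusted p = 0.0301) and Epha4 (1.67, adjusted p = 0.0402), named here after their values were seen, and the falls those of Epha1 and Efna1. On all libraries Epha2 had a change of 1.04 at 4 h (adjusted p = 0.0982, edgeR) and Epha4 one of 1.18 (adjusted p = 0.129). Epha1, a receptor that binds ephrin-A1, fell by 0.70 ± 0.11 (adjusted p = 0.000288, edgeR), to 28.7 ± 3.46 CPM in tg livers, against 46.6 ± 5.97 CPM in wt livers (SD, n = 5 each). Its change at 2 h was -0.17 ± 0.11, and the difference between durations, -0.53 ± 0.15, had an adjusted p of 0.559.

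**Figure D4:**
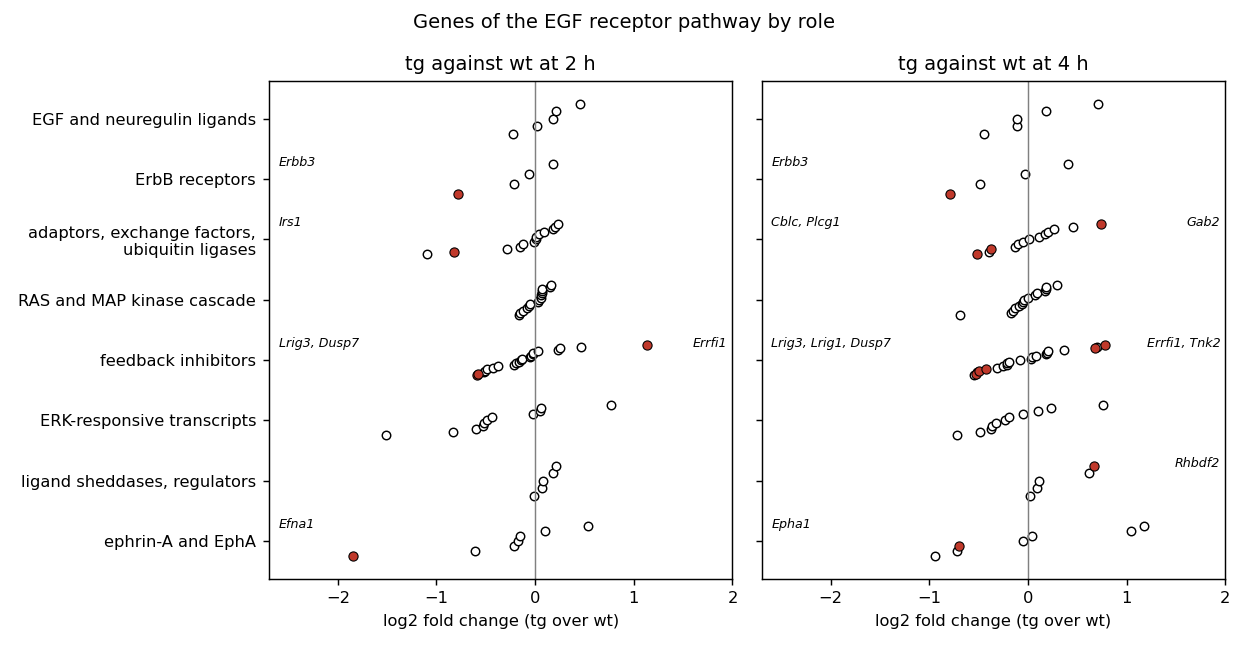
Log2 fold change of tg over wt for each tested gene of 8 lists of the EGF receptor and ephrin pathways (points), at 2 h and at 4 h, filled and named where edgeR's adjusted p was below 0.05. No point of the RAS and MAP kinase cascade is filled. At 4 h 13 of its 15 genes lie within 0.2 of 0, and the list runs from -0.69 to 0.29. Filled points of the feedback inhibitor list lie on both sides at both durations.

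The genes whose pattern over the 19 libraries was most like each of the 8 were sought among 11141 genes, by the root mean square difference between log2 CPM profiles scaled to a mean of 0 and an SD of 1. This measure has a median near 1.4 SD over all genes. The profiles hold the genotype difference itself and share libraries and depth, so the values are descriptions. For Errfi1 the most alike were Cebpb (0.466 SD) and Cebpd (0.506 SD). Erbb3 was most like Kank1 (0.414 SD), Arrdc3 (0.439 SD) and Ccdc117 (0.452 SD), and Efna1 most like Bbc3 (0.340 SD), Grb7 (0.450 SD) and Tfap4 (0.460 SD). For the genes that did not pass the test the nearest profiles lay further off, with Gtpbp2 for Egfr (0.626 SD), Pabpc4 for Dusp6 (0.701 SD), Bach1 for Spred1 (0.605 SD), 4930523C07Rik for Spry4 (0.642 SD) and Parp14 for Spry2 (0.601 SD). Among the 8 themselves, the closest pairs were Erbb3 with Efna1 (0.667 SD) and Dusp6 with Spry4 (0.850 SD), and the furthest was Errfi1 with Spry2 (1.84 SD).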

How the data were processed

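Per the labels' protocols, 1 µg of liver RNA with an integrity number above 8 went into each stranded poly-A library. DESeq2 1.30.0, Salmon 1.4.0, STAR and mouse build GRCm38.p6 appear in the submitters' processing notes without a role. For each gene the authors deposited whole-number counts. How reads became counts is not given there. The authors also deposited log2 fold changes with p-values for each duration. Their direction was checked against the counts: 523 of 523 called genes at 2 h and 1604 of 1604 at 4 h had the sign of tg minus wt. Of 14576 genes, 257 without 4 h values were left out.

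Counts were fitted in R 4.3.3 with edgeR 4.0.16, over all 19 libraries with 1 mean per group, TMM scaling, edgeR's expression filter (minimum count 10, minimum total 15; 12493 genes) and robust dispersions (15 residual degrees of freedom, biological coefficient of variation 0.183). Tests were quasi-likelihood tests, two-sided, with Benjamini-Hochberg adjustment over all genes at 0.05. CPM used TMM-scaled totals, and lengths were those of the longest GENCODE M21 transcript. Libraries with the same number are separate mice by their labels. No 2 libraries agreed within sampling noise (in 171 pairs, chi-square divided by its degrees of freedom was at least 21.2). Alternatives used DESeq2 1.42.0, limma-voom 3.58.1, other scalings and filters, a replicate block, fits to 1 duration and fits without libraries. Leaving out 3 libraries together was chosen after seeing the data. The fitting scripts were tested on simulated data.

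The 8 genes and the pathway and marker lists were chosen with earlier results of these data known. Other genes were named by rule: up to 3 called genes of a list at 4 h, or its most abundant gene beside the 8 where none other was called. Genes outside the rule are marked as named after their values were seen.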

Additional observations from a re-analysis of the deposited data

Results flagged for a closer look

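In groups of 4 or 5 libraries, the level of each of the 8 genes was searched for a library whose gap to its nearest neighbour took up an unusually large share of the group's range. Chance flags about 1 in 20 groups, and 2 of 32 were found. Errfi1 was at 1091 CPM in tg 4 h replicate 3, the lowest of its group, with a gap of 0.771 of the range against a limit of 0.710. Dusp6 was at 29.8 CPM in wt 2 h replicate 1, the highest of its group, with a gap of 0.729 of the range. That library also had the lowest Errfi1 level of its group, 279 CPM, and the highest Egfr level, 877 CPM.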

How the results depend on the processing

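Of 256 recomputed counts 230 stayed within 1.5 times the main value, and of 375 recomputed changes of single genes 344 kept their direction and call. These totals include counts that were 0 in both fits and genes uncalled in both, so they do not measure how well the calls held. The Errfi1 call at 4 h ended under upper-quartile scaling (0.65, adjusted p = 0.0623), without a filter (adjusted p = 0.0547) and with limma-voom (adjusted p = 0.0620), so that upper-quartile scaling and no filter left 1 of the 8 genes called at 4 h. Fits without 1 library gave 1 to 3 called at 4 h and 2 to 3 at 2 h. Over all genes, DESeq2 called 425 at 2 h, 6 for the difference of effects, 288 for time in tg and 1 for time in wt; edgeR called 270, 0, 114 and 0. Fits without 1 library called 151 to 244 genes at 2 h, 895 to 1887 at 4 h (895 without wt 4 h replicate 3), 0 to 3 for the difference, 20 to 134 for time in tg and 0 to 1 for time in wt. The causes were not tested.

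Changes near 0 turned sign. Egfr at 2 h was 0.050 without 3 libraries and -0.25 to 0.11 without 1. Spred1 at 2 h was -0.14 to 0.10 without 1 library and at 4 h 0.067 without 3. Dusp6 at 4 h was -0.44 to 0.20 without 1 library and 0.21 without 3.

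Of 27 pairs of libraries with the same replicate number, 10 had a correlation over 0.1 between their deviations from the group mean. The range was -0.33 to 0.41. Pairs with different numbers were not compared, so whether the number marks a shared factor was not tested. With the number as a replicate block, Egfr at 2 h was 0.044, Errfi1 at 4 h 0.70 (adjusted p = 0.0505) and Efna1 at 4 h -0.99 (adjusted p = 0.0144).

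Depth limits Spry2 most, at 7 to 30 counts a library.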

Other observations

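Other cell types were followed by marker lists. At 2 h the cholangiocyte marker Sox9, a transcription factor of bile duct cells, was at 1.74 ± 0.56 CPM in tg livers (SD, n = 4) and 3.61 ± 1.17 CPM in wt livers (SD, n = 5), a change of -1.04 ± 0.25 (adjusted p = 0.0310, edgeR's quasi-likelihood test), while the other 4 tested markers of that list did not pass and had changes above 0. Among them Krt19, a keratin of bile duct cells, was at 0.93 (unadjusted p = 0.0340, adjusted p = 0.359 in edgeR's test), and the list's median was 0.34. At 4 h 0 of the 5 had an unadjusted p below 0.05, against 25.5% of all genes, and the change of Sox9 was 0.03 ± 0.23. Sox9, Krt19, Ass1 and Col1a1 are named here after their values were seen. At 4 h the hepatocyte gene Ass1, an enzyme of the urea cycle, rose by 0.65 ± 0.18 (adjusted p = 0.0256). Tested too were 7 Kupffer cell and macrophage, 8 stellate cell, 5 leukocyte and 5 red cell markers. Of these, 0 passed edgeR's test at 2 h or 4 h, where 2.16% and 11.4% of all genes did. An unadjusted p below 0.05 was found for 0, against 11.7% of all genes at 2 h and 25.5% at 4 h. Red cell markers had a median change of -0.67 at 2 h and -0.55 at 4 h. Stellate cell markers ran from -0.38 to 1.03 at 4 h. Without the 3 libraries treated with caution, 3 hepatocyte markers and 1 stellate cell marker, Col1a1, passed as higher in tg at 4 h, where 16.7% of all genes were called. The part of these cell types in the levels of the 8 genes was not tested.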
